A study of Mus musculus with 11 samples.

Results

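The genes examined were 10 that encode neuroligins and scaffold proteins of the synapse, taken by name from the 24143 genes of the count table: the neuroligins Nlgn1, Nlgn2 and Nlgn3, the membrane-associated guanylate kinases Dlg1, Dlg3 and Dlg4, the scaffold gene Shank3, and Homer1, Homer2 and Homer3. Their RNA was followed in HT22 cells, an SV40-immortalized mouse hippocampal line, and in HT22[TR/TO-Klf9], a stably transfected derivative kept in zeocin and blasticidin, in which doxycycline raises the zinc finger transcription factor Klf9. The labels do not say whether the derivative is a single clone or what drives its Klf9 cassette. The parent vehicle group (n = 3) was the HT22 parent line given DMSO, and the parent doxycycline group (n = 3) was the same line given 0.5 µg/ml doxycycline, both for 8 hours from 24 hours after plating. The TR/TO-Klf9 vehicle and doxycycline groups were the derivative under the same treatments. The labels name 3 and 2 libraries for them, but the columns of vehicle 3 and doxycycline 1 of this line matched in each of the 33815 rows. Because their labels conflict, that library was placed in neither group, which left 2 vehicle libraries and 1 doxycycline library of TR/TO-Klf9, and 9 libraries in all.

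Neuroligins are postsynaptic adhesion molecules that bind presynaptic neurexins across the cleft. Nlgn1 is found mainly at excitatory synapses and Nlgn2 mainly at inhibitory ones, while Nlgn3 occurs at both. Inside the postsynaptic cell, PSD-95 (the product of Dlg4) and its relatives SAP97 (Dlg1) and SAP102 (Dlg3) bind receptors and neuroligins through PDZ domains, and Shank and Homer proteins link this layer to metabotropic glutamate receptors, inositol trisphosphate receptors and the actin cytoskeleton. Dlg1 also acts at cell junctions outside the nervous system.

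Counts per library, summed over the transcript row used for each gene, ran from 10302431 to 18902784, with 12383212 in the single TR/TO-Klf9 doxycycline library. Klf9 stood between 36.1 and 41.4 CPM (counts scaled to library size after TMM) in the 6 parent libraries, at 48.7 and 44.1 in the TR/TO-Klf9 vehicle libraries and at 101 in the induced one (TR/TO-Klf9 doxycycline). The unassigned library held 45.9 CPM of Klf9, between the values of both vehicle libraries of its line. The labels call the cells hippocampal and the design text calls them neuronal, but of 13 neuronal markers only Tubb3, Elavl3 and Syp averaged 1 CPM or more, and Rbfox3, Map2, Snap25 and Slc17a7 were near 0 with Gad1 at 0. Summed neuronal marker CPM was 35.2 to 35.4 in parent vehicle, 18.9 to 23.4 in TR/TO-Klf9 vehicle and 14.3 in TR/TO-Klf9 doxycycline libraries, while 10 fibroblast and mesenchymal markers summed to 3011 to 3937 CPM in parent vehicle, 3585 to 3727 in TR/TO-Klf9 vehicle and 3675 in TR/TO-Klf9 doxycycline libraries. A list of 5 microglial markers summed to 5.15 to 7.79, 30.5 to 32.4 and 35.01 CPM in the same order, through Csf1r and Tmem119, with Cx3cr1 and P2ry12 near 0. Tubb3 made up most of the neuronal sum, at a mean of 25.4 CPM over the 9 libraries beside 1.83 for Elavl3 and 1.14 for Syp. Between the lines under vehicle the 4 tested neuronal markers had a median log2 difference of 0.87. Of these 1 was called higher and 1 lower in TR/TO-Klf9, against 18.8% and 20.1% of all tested genes. The part of these markers in the results below was not tested, and in bulk RNA a smaller share of cells expressing a gene and less RNA per cell cannot be told apart.

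Promoter sequences are shown for 3 genes because Klf9 and its relatives are known to bind GC boxes and CACCC boxes: Nlgn2, which fell most after doxycycline, Dlg1, which fell less, and Homer3, which was not called. The windows run from 250 bases before to 50 after the RefSeq start on GRCm38.p6, 5′ to 3′ on the gene's strand, with capitals for GC boxes (GGGCGG or CCGCCC) and CACCC boxes (CACCC or GGGTG), which overlap where a capital run is longer than 6 letters. The Nlgn2 window is chr11:69837735-69838034 on the minus strand, the Dlg1 window chr16:31663193-31663492 on the plus strand, the outermost of 4 windows of that gene, and the Homer3 window chr8:70282749-70283048 on the plus strand.
Nlgn2: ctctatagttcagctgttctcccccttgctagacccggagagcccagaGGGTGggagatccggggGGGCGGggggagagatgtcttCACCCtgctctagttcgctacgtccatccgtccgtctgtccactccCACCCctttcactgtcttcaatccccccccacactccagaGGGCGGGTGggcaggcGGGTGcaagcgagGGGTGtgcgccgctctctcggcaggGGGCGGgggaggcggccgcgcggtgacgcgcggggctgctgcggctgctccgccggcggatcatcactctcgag
Dlg1: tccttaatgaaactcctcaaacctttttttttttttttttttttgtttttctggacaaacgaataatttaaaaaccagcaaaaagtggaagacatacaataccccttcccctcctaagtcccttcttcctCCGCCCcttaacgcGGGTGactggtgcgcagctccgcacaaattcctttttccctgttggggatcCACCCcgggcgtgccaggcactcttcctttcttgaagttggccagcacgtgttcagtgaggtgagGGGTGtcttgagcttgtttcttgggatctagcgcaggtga
Homer3: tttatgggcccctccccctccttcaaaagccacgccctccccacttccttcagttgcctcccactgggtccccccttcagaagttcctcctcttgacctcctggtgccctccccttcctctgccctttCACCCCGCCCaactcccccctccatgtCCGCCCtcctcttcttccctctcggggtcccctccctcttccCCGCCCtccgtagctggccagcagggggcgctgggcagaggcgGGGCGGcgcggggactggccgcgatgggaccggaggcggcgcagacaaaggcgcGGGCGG
The Nlgn2 window held 3 GC boxes and 6 CACCC boxes, the Dlg1 window 1 and 3, and the Homer3 window 5 and 1. The other Dlg1 windows held 2 and 1, 0 and 0, and 0 and 1. G and C made up 68.7% of the Nlgn2 window, 47.3% of the Dlg1 window shown and 69.7% of the Homer3 window. The median over all mouse windows was 52.7%, and the part of base composition in these counts was not tested. RefSeq windows were matched for 9 of the 10 genes, 18 windows in all; 8 windows held a GC box and 14 a CACCC box. Among 32851 mouse windows of the same length, 35.7% held a GC box and 57.5% a CACCC box. A match of letters describes the sequence and is no measure of binding.

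Transcript levels spanned a wide range in the untreated parent line. Per kilobase of transcript, with the range given by the lengths of each gene's RefSeq forms, parent vehicle cells held 41.7 to 44.5 CPM per kb of Homer3 and 29.2 to 52.5 of Dlg1. Dlg4 (13.6 to 21.3), Nlgn2 (16.4) and Homer1 (10.6 to 21.8) followed, with overlapping ranges, and then Dlg3 at 7.52 to 10.1. Nlgn1 stood at 0.497 to 1.95, Nlgn3 at 0.188 and Shank3 and Homer2 at 0.0164 or lower. The cells carried mRNA of Homer3, Dlg1, Dlg4, Nlgn2, Homer1 and Dlg3 in quantity, with 8 of the 10 genes above the filter on low counts and Shank3 and Homer2 below it.

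**Figure D1:**
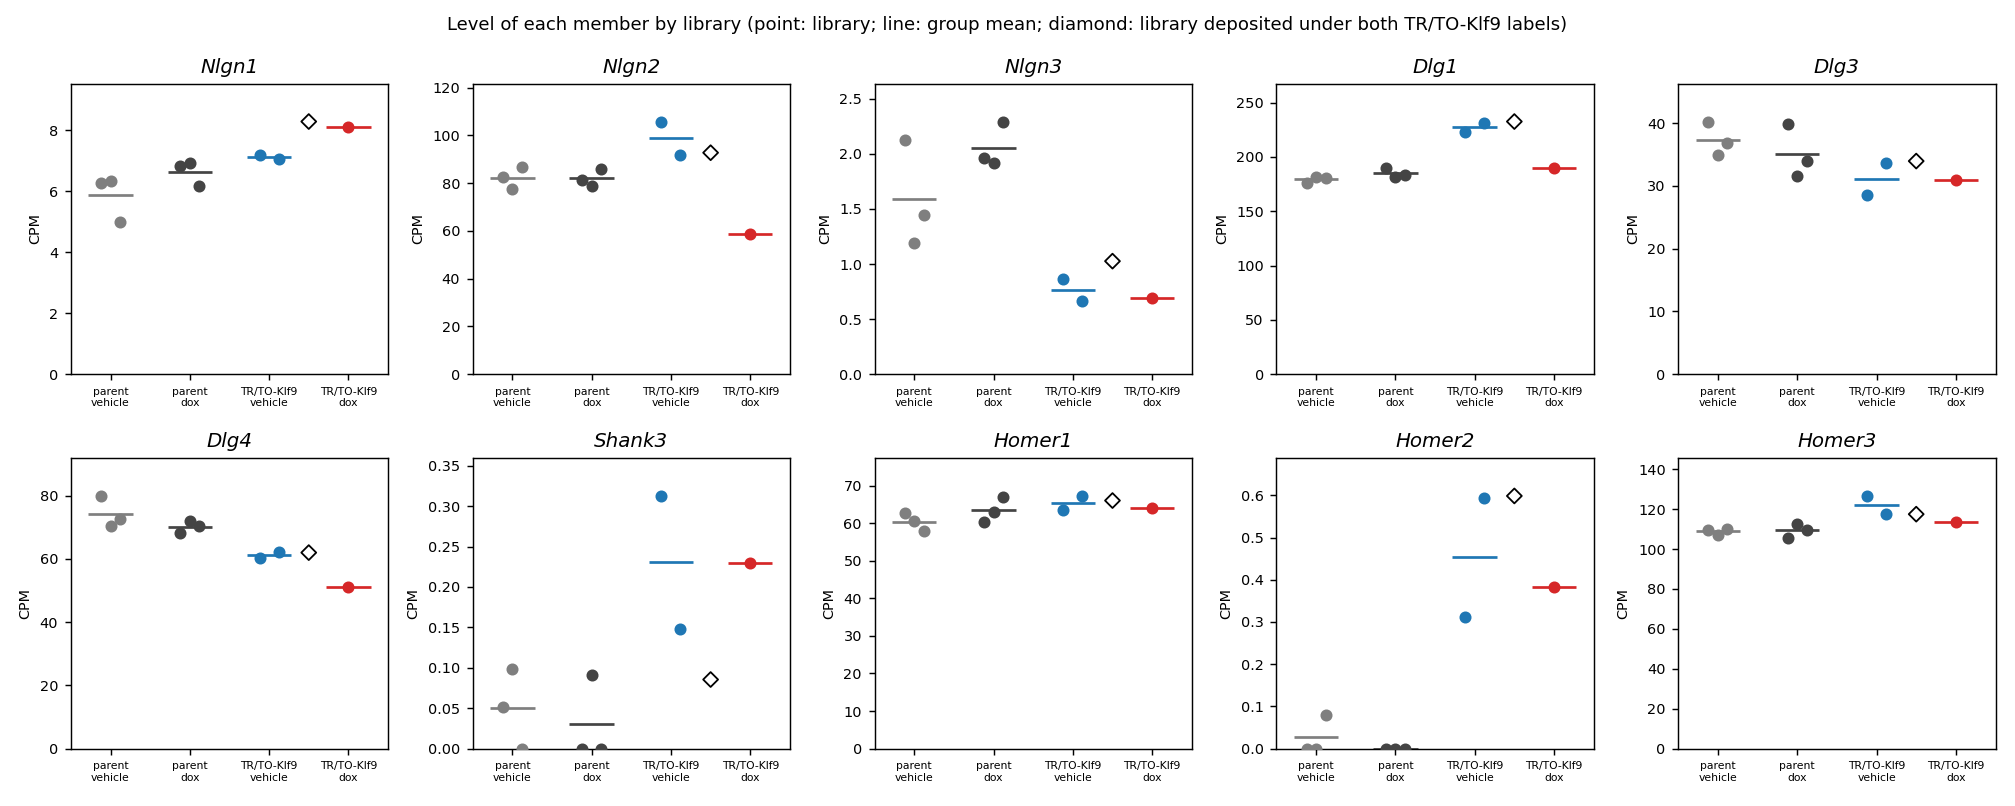
Level of each of the 10 genes in every library, as CPM on a linear axis that starts at 0; points are libraries, lines are group means and diamonds are the library deposited under both TR/TO-Klf9 labels. The TR/TO-Klf9 doxycycline library lies below every other library for Nlgn2 (58.7 CPM) and Dlg4 (51.3 CPM). Dlg1 is highest in the unassigned library (233 CPM), followed by the TR/TO-Klf9 vehicle libraries.

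Nlgn2 had the largest change after doxycycline in TR/TO-Klf9 among the 8 tested of the 10 genes. It encodes the neuroligin of inhibitory synapses (NM_198862, chromosome 11). Its level was 82.6, 77.4 and 86.6 CPM in parent vehicle libraries 1 to 3, 81.5, 79.0 and 85.9 in parent doxycycline libraries 1 to 3, 106 and 91.9 in TR/TO-Klf9 vehicle libraries and 58.7 in the single TR/TO-Klf9 doxycycline library; the counts behind the last 3 values were 1354, 1237 and 766. The doxycycline library of TR/TO-Klf9 was lower than each of the other 8 libraries, while the parent groups overlapped and TR/TO-Klf9 vehicle lay above all parent libraries. After doxycycline Nlgn2 fell by 40.6% in TR/TO-Klf9 (log2 −0.75 ± 0.09 SE, 95% interval −0.95 to −0.55, edgeR quasi-likelihood adjusted p = 7.07e-05). In the parent line the same treatment gave a log2 difference of −0.00 ± 0.06 (interval −0.13 to 0.12), and the difference between the lines' responses was −0.75 ± 0.11 (adjusted p = 6.24e-04). The doxycycline group was a single library, and with only the 3 TR/TO-Klf9 libraries in the fit the value was −0.73 with an adjusted p of 0.0544; with the unassigned library counted as doxycycline it was −0.38 with an adjusted p of 0.321, and counted as vehicle −0.70 with an adjusted p of 8.22e-05. That library itself held 92.8 CPM of Nlgn2, inside the range of the 2 vehicle libraries. The spread behind these p-values came mostly from the parent line. Parent doxycycline libraries differed pairwise by a chi-square per degree of freedom of 0.953 to 1.03, where 1 is the spread of counting alone. Parent vehicle libraries differed by 1.501 to 5.77, while the 2 TR/TO-Klf9 vehicle libraries differed by 7.60, so p-values for TR/TO-Klf9 may be too small.

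Fold changes in these libraries moved with transcript length. After doxycycline in TR/TO-Klf9 the median transcript length was 5047 nt among falling genes and 1855 nt among rising ones. The Nlgn2 transcript has 5003 nt. The length used for Dlg1 was 6143 nt, the longest of its 6 transcript rows, of which the shortest has 3418 nt. Each fit was therefore repeated with the length trend of every library removed. Nlgn2 still fell (log2 −0.61, adjusted p = 6.44e-04), and its difference between lines also passed (−0.61, adjusted p = 0.00419). With the length trend removed and only the TR/TO-Klf9 libraries in the fit the value was −0.61 with an adjusted p of 0.0496.

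Of the 8 genes tested, 2 fell after doxycycline in TR/TO-Klf9 and none rose, against 11.4% of all 13536 tested genes that fell, 6.44% that rose and 17.8% that passed in either direction. The median log2 change of the 8 genes was −0.12, beside −0.01 for all tested genes. In the fit without the length trend 1 of the 8 fell, Nlgn2, against 4.85% of all tested genes that fell, 5.51% that rose and 10.4% in either direction. The responses of the lines differed for 2 of the 8, both lower in TR/TO-Klf9, against 6.92% of all tested genes lower, 2.75% higher and 9.67% in either direction. With the trend removed the difference was called for 1 of the 8, against 2.21% lower, 1.36% higher and 3.57% in either direction.

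Dlg1, which encodes SAP97, was the other gene that fell (NM_001252435, chromosome 16). It was measured at 176, 181 and 181 CPM in parent vehicle, 190, 181 and 184 in parent doxycycline, 223 and 231 in TR/TO-Klf9 vehicle and 190 in the single doxycycline library of TR/TO-Klf9. Both vehicle libraries of that line were above all others of the 9, and the doxycycline library lay within the range of the parent doxycycline libraries. The unassigned library held 233 CPM. The fall was 16.6% (log2 −0.26 ± 0.06 SE, interval −0.40 to −0.12, adjusted p = 0.0115), and the difference between the lines' responses was −0.31 ± 0.08 (adjusted p = 0.0222). Removal of the length trend ended both calls (log2 −0.06 with adjusted p = 0.626, and −0.12 with adjusted p = 0.526). The size left depends on the length assigned to the gene. With every transcript row a feature and the trend removed, the fall ran from −0.17 to −0.06 over the rows and passed in none. The call of the fall was also lost with only the TR/TO-Klf9 libraries in the fit (−0.24, adjusted p = 0.311) and with the unassigned library as doxycycline (−0.10, adjusted p = 0.533).

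Dlg4, which encodes PSD-95, did not pass the threshold after doxycycline. Its level was 79.9, 70.3 and 72.6 CPM in parent vehicle, 68.2, 72.1 and 70.4 in parent doxycycline, 60.3 and 62.0 in TR/TO-Klf9 vehicle and 51.3 in the TR/TO-Klf9 doxycycline library. Every TR/TO-Klf9 library was below every parent library, and the doxycycline library was the lowest of the 9. The doxycycline effect in TR/TO-Klf9 was −0.25 ± 0.09 (adjusted p = 0.0532). Without TR/TO-Klf9 vehicle 1 it was −0.28 and passed (adjusted p = 0.0323), as it did without parent vehicle 1 (−0.25, adjusted p = 0.0297), and with the unassigned library as vehicle (−0.24, adjusted p = 0.0451). It was −0.09 after removal of the length trend (adjusted p = 0.537), with the longer of its 2 row lengths, 5472 and 3488 nt. The 2 rows hold equal counts. With every row a feature and the trend removed, the shorter row was at −0.18 and did not pass.

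The other tested genes gave no call after doxycycline in either line. Nlgn1, the neuroligin of excitatory synapses, was measured at 6.28, 6.34 and 4.99 CPM in parent vehicle, 6.83, 6.92 and 6.17 in parent doxycycline, 7.19 and 7.06 in TR/TO-Klf9 vehicle and 8.12 in the doxycycline library of TR/TO-Klf9. That library was the highest of the 9, and the unassigned one held 8.29 CPM. In TR/TO-Klf9 the log2 differences were −0.10 ± 0.07 for Homer3 (interval −0.25 to 0.04), −0.03 ± 0.08 for Homer1 (−0.20 to 0.14) and −0.01 ± 0.14 for Dlg3 (−0.30 to 0.28). The interval of Dlg3 takes in a change of the size seen in Dlg1 with TMM scaling (−0.26). That of Homer1 ends at −0.20 and that of Homer3 at −0.25, just short of it. With a single induced library these intervals may be too narrow. Nlgn1 differed by 0.19 ± 0.19 (−0.20 to 0.58) and Nlgn3 by −0.14 ± 0.57 (−1.35 to 1.06), so that little can be said of Nlgn3 at this depth. In the parent line none of the 8 genes, and 0.0% of all genes, passed after doxycycline.

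**Figure D2:**
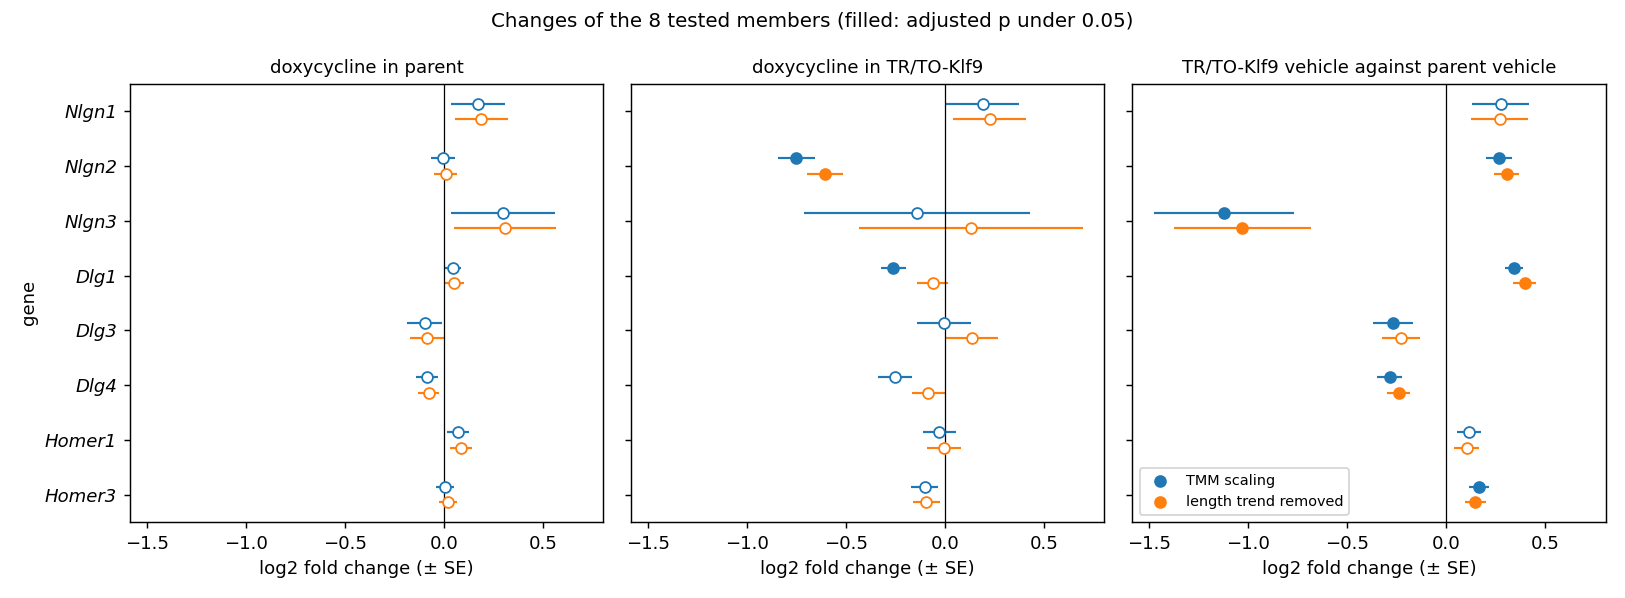
Log2 fold changes ± SE of the 8 tested genes for doxycycline in each line and for the lines under vehicle, on 1 shared axis, with TMM scaling (blue) and with the length trend removed (orange), filled where the adjusted p was under 0.05. After doxycycline in TR/TO-Klf9 Nlgn2 (−0.75) and Dlg1 (−0.26) lie below 0 with filled points in blue, Nlgn2 also in orange (−0.61), and in the parent line no gene is called.

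The next question was how the same genes differ between the lines before doxycycline. Under vehicle 6 of the 8 tested genes differed between TR/TO-Klf9 and parent cells, 3 higher and 3 lower, in a comparison in which 38.9% of all tested genes were called, 18.8% higher and 20.1% lower. Dlg1 was higher in TR/TO-Klf9 by 0.34 ± 0.05 on the log2 scale (adjusted p = 2.81e-05), Nlgn2 by 0.26 ± 0.07 (adjusted p = 0.00433) and Homer3, the most abundant Homer gene here, by 0.17 ± 0.05 (adjusted p = 0.0159). Dlg4 was lower (log2 −0.29 ± 0.06, adjusted p = 0.00156), as was Dlg3, which encodes SAP102 (log2 −0.27 ± 0.10, adjusted p = 0.0411). Nlgn3 was lower as well (log2 −1.12 ± 0.35, adjusted p = 0.0185). The marker sums given above also differed between the lines, the neuronal one mostly through Tubb3, and their part was not tested. The SAP97 and PSD-95 genes, which are close relatives, differed in opposite directions between the lines. The comparison shares its TR/TO-Klf9 vehicle libraries with the doxycycline comparison, in which Nlgn2 was at −0.75 and Dlg1 at −0.26.

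Nlgn3 was close to the lower limit of measurement. Its level was 2.13, 1.19 and 1.45 CPM in parent vehicle and 1.96, 1.91 and 2.29 in parent doxycycline, against 0.860 and 0.669 in TR/TO-Klf9 vehicle and 0.690 in TR/TO-Klf9 doxycycline libraries. All TR/TO-Klf9 libraries were below all parent libraries. Homer3 stood at 107 to 110 CPM in parent vehicle and at 127 and 118 in TR/TO-Klf9 vehicle libraries, without overlap, and Dlg3 at 34.9 to 40.2 and at 28.5 and 33.7. Over 9 fits that each left out 1 library, Dlg1, Nlgn2 and Dlg4 passed in all 9. Nlgn2 was at 0.16 without TR/TO-Klf9 vehicle 1 (adjusted p = 0.0498) and at 0.35 without TR/TO-Klf9 vehicle 2, and its call was lost with the unassigned library under both labels (0.24, adjusted p = 0.182) or as doxycycline (0.26, adjusted p = 0.232). The call of Nlgn3 was lost without parent vehicle 1 (−0.79) and without TR/TO-Klf9 vehicle 2 (−0.98). That of Homer3 was lost without parent vehicle 2 (0.14), parent vehicle 3 (0.16) or TR/TO-Klf9 vehicle 1 (0.11). That of Dlg3 was lost without parent vehicle 1 (−0.20), parent vehicle 3 (−0.29), parent doxycycline 3 (−0.28) or TR/TO-Klf9 vehicle 1 (−0.16). Over all 21 alternatives the Dlg3 call was lost in 11, with values from −0.41 to −0.16. In the fit without the length trend Dlg3 was at −0.23 and did not pass, which left 3 higher and 2 lower against 19.2% and 19.0% of all tested genes and 38.3% in either direction. The length used for Dlg3 there was 4940 nt. With every row a feature and the trend removed, a Dlg3 row of 3692 nt with the same counts passed (−0.26, edgeR adjusted p = 0.0434). The rest of its 5 rows did not pass, so this loss depends on the length assigned. Nlgn1 was at 0.27 with and without the trend and passed in neither, but gained a call in 3 of 21 alternatives. Its 2 rows hold equal counts, and the length used was 3013 nt. With every row a feature and the trend removed, its row of 11807 nt was at 0.42 between the lines and passed. After doxycycline in TR/TO-Klf9 that row was at 0.53 and did not pass. Homer3 overlaps Ddx49 in the annotation, and since the strand setting is not given in the sources used here, its reads may include that gene's. Ddx49 was also higher in TR/TO-Klf9 (log2 0.15, adjusted p = 0.0293).

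Homer2 and Shank3, the scarcest of the genes, were not tested. Homer2 had 1 count over the 3 parent vehicle libraries and 12 over the 2 TR/TO-Klf9 vehicle libraries, a ratio per total count of 19.2 (95% counting interval 2.84 to 821), with 5 counts in the TR/TO-Klf9 doxycycline library. Shank3 had 2 and 6 counts in the same groups, a ratio of 4.8 (interval 0.859 to 48.6), and 3 counts in the doxycycline library. Homer2 RNA was seen in every TR/TO-Klf9 library and in 1 of the 6 parent libraries, at less than 1 CPM in each, and the intervals cover counting error only.

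Homer1 gives rise to long forms with a coiled coil that link partners together and to a short form, Homer1a, that lacks it and is known as an activity-induced competitor of the long forms. The row kept for the gene was a long form (NM_001284189, chromosome 13), at 57.9 to 62.6 CPM in parent vehicle, 60.4 to 67.0 in parent doxycycline, 63.5 and 67.2 in TR/TO-Klf9 vehicle and 64.0 in TR/TO-Klf9 doxycycline libraries. The parent groups overlapped, as did parent doxycycline and both TR/TO-Klf9 groups, and parent vehicle lay below both TR/TO-Klf9 groups. The row of the short form (NM_011982), whose coding sequence is 558 nt, held 28.4%, 29.1% and 30.3% of the long row's count in parent vehicle libraries, 27.4% to 30.2% in parent doxycycline, 25.2% and 27.7% in TR/TO-Klf9 vehicle and 21.4% in TR/TO-Klf9 doxycycline libraries. The doxycycline library was the lowest of the 9. Tested as a feature of its own, a choice made after its values were seen, the short row differed by −0.31 ± 0.14 after doxycycline in TR/TO-Klf9 and did not pass (edgeR adjusted p = 0.142). The transcript of the short row has 5713 nt and that of the long row 2765 nt. With the length trend removed the short row was at −0.16 ± 0.14 and did not pass (edgeR adjusted p = 0.500). The rows share reads, so they are not separate counts of the forms.

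The genes on each side of Nlgn2 and Dlg4 on chromosome 11 gave no call. Tmem256, beside Nlgn2, differed by 0.31 after doxycycline in TR/TO-Klf9 (adjusted p = 0.0555), and Spem1 on the other side had 18 counts in all and was not tested. Mir324 and Asgr1, beside Dlg4, had 24 and 9 counts. Among 10873 genes at 5 CPM or more, the levels most like those of Nlgn2 over the 9 libraries belonged to Rfx7, Sgip1 and Camk2g (Pearson r of 0.986, 0.984 and 0.977 on log2 CPM), a description only, since the points share their libraries. Sgip1 encodes an endocytic adaptor and Camk2g a subunit of calcium/calmodulin-dependent kinase II, and Rfx7 encodes a transcription factor. In TR/TO-Klf9 the log2 difference after doxycycline was −0.49 for Rfx7, −0.79 for Sgip1 and −0.43 for Camk2g. The doxycycline library was among the 9 used to pick these genes, so their falls follow from that choice.

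The 6 lists of genes with which neuroligins and scaffolds work were read in the same way. Among neurexins and presynaptic partners 2 of 8 tested genes fell after doxycycline in TR/TO-Klf9 and none rose, with a median log2 change of −0.27, beside the 11.4% lower, 6.44% higher and median of −0.01 over all tested genes, against which the counts of each list stand. Where the length trend was removed the lists are set against 4.85% lower and 5.51% higher. Both encode receptor tyrosine phosphatases of the LAR family, which organize presynaptic sites: Ptprf fell (log2 −0.60 ± 0.08, adjusted p = 1.81e-04), as did Ptprs (log2 −0.49 ± 0.09, adjusted p = 0.00146). With the length trend removed Ptprf was at −0.35 and passed (adjusted p = 0.0231), and Ptprs was at −0.31 and did not (adjusted p = 0.0659). Cask then rose (0.28, adjusted p = 0.0167), which gave 1 higher and 1 lower of 8 and a median of −0.10. Among other scaffold and adaptor genes of the excitatory postsynapse 5 of 20 fell and 2 rose, with a median of −0.13. Tiam1 and Kalrn encode guanine nucleotide exchange factors found in dendritic spines, and both fell, Tiam1 to a log2 change of −0.67 ± 0.11 (adjusted p = 0.00132) and Kalrn of −0.49 ± 0.08 (adjusted p = 6.54e-04). Dlg5 was at −0.36 ± 0.07 and Cttn, which encodes the actin-binding protein cortactin, at −0.34 ± 0.08, and both passed. With the length trend removed Tiam1 (−0.43) and Cttn (−0.31) still passed, and Kalrn (−0.20) and Dlg5 (−0.10) did not. Grip1, a PDZ scaffold gene, and Sharpin rose by 0.62 ± 0.15 and 0.33 ± 0.08, and both were named after their values were seen. Removal of the length trend turned the tally to 3 higher (Cyfip1, Grip1 and Sharpin) and 2 lower of 20, with a median of 0.06.

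Among scaffold genes of the inhibitory postsynapse, the layer in which neuroligin-2 works, none of 8 tested genes passed after doxycycline, and their median was −0.00. Of 6 tested genes among other adhesion genes and neuroligin regulators 1 fell, the sorting nexin gene Snx27 (log2 −0.26 ± 0.08, adjusted p = 0.0292), with a median of −0.16, and it did not pass with the length trend removed. Of 9 tested glutamate receptor genes 1 rose, with a median of 0.07. This was Grik2, a kainate receptor subunit, at 1.64 CPM in TR/TO-Klf9 vehicle and 3.22 in the doxycycline library (log2 0.97 ± 0.25, adjusted p = 0.0195), far under the 24.9 CPM of parent vehicle cells. Of 15 tested genes listed as Homer partners 4 fell and none rose, with a median of −0.18. The inositol trisphosphate receptor genes, which encode calcium release channels, were at log2 −0.46 ± 0.08 for Itpr3, −0.43 ± 0.09 for Itpr1 and −0.32 ± 0.10 for Itpr2, and Opn3 was at −0.28 ± 0.07. Opn3 encodes an opsin and is not known as a Homer partner. With the length trend removed none of the 3 Itpr genes passed, at −0.17 for Itpr3, −0.12 for Itpr1 and 0.03 for Itpr2, whereas Opn3 did (−0.29, adjusted p = 0.0164). Ryr1 then rose (0.33, adjusted p = 0.0261, against −0.08 with TMM scaling alone), which gave 1 higher and 1 lower of 15 and a median of −0.00. Cask, Cyfip1 and Ryr1 were named after their values were seen. In the parent line 0 genes of the 6 lists passed.

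**Figure D3:**
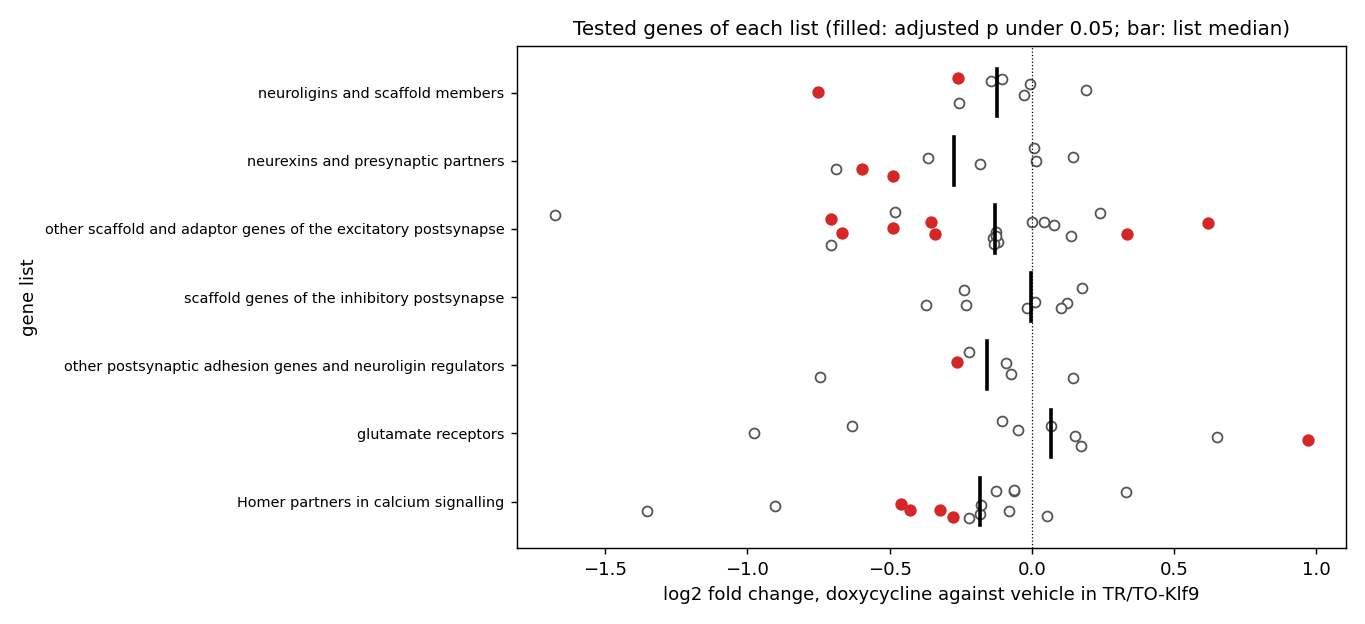
Log2 fold changes after doxycycline in TR/TO-Klf9 for the tested genes of the 10 genes and of the 6 lists, 1 point per gene, with filled points for an adjusted p under 0.05. The scaffold genes of the inhibitory postsynapse hold no filled point, and Grik2 is the filled point at 0.97 among the glutamate receptors.

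Between the lines under vehicle the partner genes differed in both directions. In TR/TO-Klf9 Grik2 was lower (log2 −3.92 ± 0.13, adjusted p = 1.07e-12) and so was Shank2, a relative of Shank3 (log2 −3.93 ± 0.35, adjusted p = 2.19e-07), at 4.20 CPM in parent and 0.266 in TR/TO-Klf9 cells. Ptprf was higher by 0.71 ± 0.06, Kalrn by 0.47 ± 0.06 and Adam10, which encodes a protease that sheds synaptic adhesion proteins, by 0.36 ± 0.05. Lower values were found for Tiam1 (log2 −0.50 ± 0.08), Itpr1 (log2 −0.81 ± 0.06) and Gopc, which encodes a Golgi PDZ protein (log2 −0.37 ± 0.05). Beside 18.8% higher and 20.1% lower, 38.9% in all, over all tested genes, the lists gave 3 higher and 0 lower of 8 among presynaptic partners, 6 and 6 of 20 among excitatory scaffolds, 1 and 1 of 8 among inhibitory scaffolds, 1 and 2 of 6 among adhesion genes and regulators, 2 and 2 of 9 among glutamate receptors and 1 and 4 of 15 among Homer partners.

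**Figure D4:**
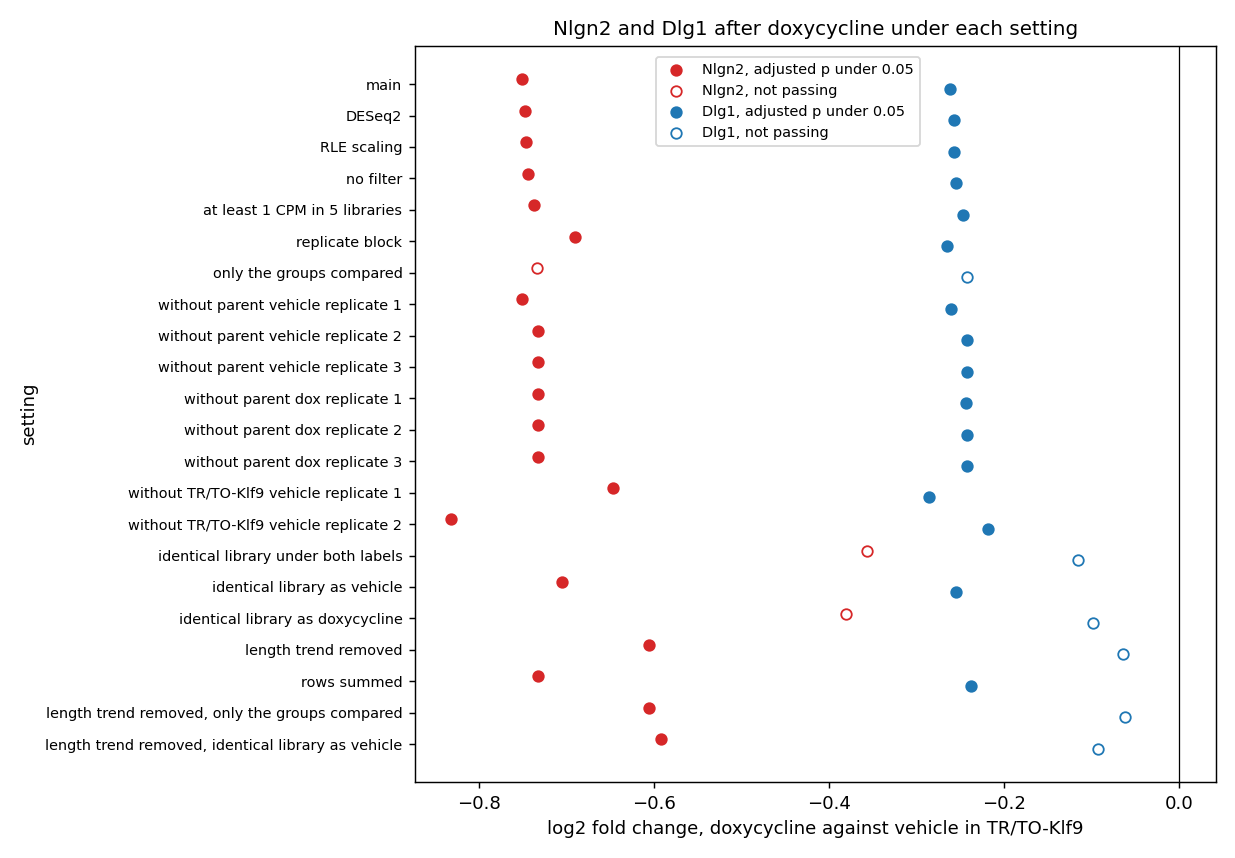
Log2 fold change of Nlgn2 and Dlg1 after doxycycline in TR/TO-Klf9 under each setting, 1 row per setting, filled where the adjusted p was under 0.05. Every point lies below 0; Nlgn2 runs from −0.83 to −0.36 and loses its call with only the groups compared and with the unassigned library under both labels or as doxycycline, and Dlg1 also loses it in all 3 settings with the length trend removed.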

How the data were processed

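Total RNA was sequenced from oligo-dT-primed libraries, 11 by the labels. The counts deposited are whole reads for each RefSeq transcript, not normalized. Tools named in the submitters' processing notes are CASAVA, FastQC, Bowtie and DESeq, and the build is mm8; the counting program, its strand setting and its version are not given. Each gene was represented by its transcript row of highest mean, giving 24143 genes; 423 accessions without a symbol held 0.739% to 0.773% of counts. Groups follow the sample titles. Whether replicates came from separate cultures is not stated, and p-values then describe the spread between these samples alone.

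Filtering used filterByExpr, scaling TMM, and testing edgeR 4.0.16 under R 4.3.3 (glmQLFit, robust, with glmQLFTest; 4 group means over 9 libraries, 5 residual degrees of freedom). Benjamini-Hochberg adjustment covered 13536 genes, at 0.05. Each SE was derived from log2 fold change and F. The common dispersion was 0.00229, and the single induced library was taken to have the spread of the rest, although the libraries of its own line differed more than any parent pair of 1 group did. The design had named all 11 columns; leaving out the identical pair departs from it. Alternatives were DESeq2 1.42.0, RLE scaling, other filters, the replicate number as a block, only the groups compared, leaving out each library, 3 placements of the identical library, summed rows, and a loess trend (span 0.4) of each library on transcript length as an offset (GENCODE M21 lengths, 98.1% of tested genes). The trend combined with 2 of these choices, and every row as a feature, were added after the data were seen. The test was tried on simulated counts.

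The genes, the lists and their rules were chosen with earlier results of these data known. All 10 genes are named; of each list, up to 4 genes past the threshold by smallest p in a comparison, of which the text gives a part (1 further gene counted among those that fell is not reported here); for the gene with the smallest p, its 3 most correlated genes; and the neighbours of Nlgn2 and Dlg4. Symbols, neighbours and promoter windows come from RefSeq (GRCm38.p6). The remaining steps ran in Python 3.11.15.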

Additional observations from a re-analysis of the deposited data

Results flagged for a closer look

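The response to doxycycline differed between TR/TO-Klf9 and parent cells, by the test of the difference itself in edgeR, for Klf9 and 12 of the other genes named. The list genes among them had been named after passing in the doxycycline comparison in TR/TO-Klf9 or, for Sharpin, after its value was seen. That comparison uses the same TR/TO-Klf9 libraries. Calls of the list genes here are therefore no separate evidence and cannot be set against the shares of all tested genes. The log2 difference was 1.14 ± 0.11 SE for Klf9 (adjusted p = 1.01e-05), −0.75 ± 0.11 for Nlgn2 (adjusted p = 6.24e-04) and −0.31 ± 0.08 for Dlg1 (adjusted p = 0.0222), against 2.75% of all tested genes called higher and 6.92% lower. The LAR phosphatase genes Ptprf and Ptprs were at −0.52 ± 0.10 and −0.51 ± 0.10. Tiam1 was at −0.58 ± 0.13, Kalrn at −0.52 ± 0.10, Cttn at −0.37 ± 0.09 and Dlg5 at −0.36 ± 0.08. The inositol trisphosphate receptor genes Itpr3 and Itpr1 were at −0.47 ± 0.10 and −0.43 ± 0.10, and the opsin gene Opn3 at −0.28 ± 0.08. Sharpin, named after its value was seen, was at 0.38 ± 0.10. The call for Dlg1 was lost without parent vehicle 3 and without each of the 3 parent doxycycline libraries. After removal of the length trend, the differences of Klf9 (1.24) and Nlgn2 (−0.61) passed and those of Dlg1 and the other 10 genes did not, against 1.36% of all tested genes higher and 2.21% lower. Grik2 (1.14) and Cask (0.31), whose differences did not pass with TMM scaling alone, also passed with the trend removed. In that fit Ptprf was at −0.28, Ptprs at −0.34, Tiam1 at −0.35, Kalrn at −0.24, Cttn at −0.35, Dlg5 at −0.11, Itpr3 at −0.19, Itpr1 at −0.12, Opn3 at −0.31 and Sharpin at 0.35, with adjusted p from 0.0517 for Opn3 to 0.544 for Itpr1.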

How the results depend on the processing

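Nlgn2 stayed below 0 after doxycycline in TR/TO-Klf9 in every setting tried, from −0.83 without TR/TO-Klf9 vehicle 2 to −0.36 with the identical library under both labels. Of 656 values of the members under alternatives, 609 kept their side of the threshold, 41 lost a call, 6 gained one, no called value changed sign and 40 uncalled values did. Genes called after doxycycline in TR/TO-Klf9 numbered 2410, and 1319 with DESeq2, 73 with only the groups compared, 1403 with the length trend removed, 91 with both of the last, 1354 with the trend removed and the identical library as vehicle, and 0 with that library as doxycycline or under both labels (2044 and 1480 at an unadjusted p under 0.05). Leaving out 1 library gave 1890 to 3800, the highest without TR/TO-Klf9 vehicle 2. The difference between lines gave 1309 calls, 716 with DESeq2, 483 with the trend removed, 426 with the library also as vehicle, 0 with it as doxycycline or under both labels (1073 and 653 unadjusted), and 571 to 2910 without 1 library. The parent line gave 0 calls by edgeR (293 unadjusted) and 0 by DESeq2 (40 unadjusted). Klf9 lost its call with the library under both labels or as doxycycline, at 0.68 and 0.69 in TR/TO-Klf9 and at 0.68 and 0.69 for the difference; between lines it was at 0.26 and 0.25 in those fits, with no call, and ranged over 0.18 to 0.32 without 1 library, with its call lost without TR/TO-Klf9 vehicle 1. Itpr2 changed from −0.32 to 0.025, 0.0342 and 0.0659 in the 3 fits with the trend removed.

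With the replicate block 1381 genes were called after doxycycline in TR/TO-Klf9 and 607 for the difference; same-numbered libraries correlated between −0.085 and 0.018, so the numbers were not taken as pairs. Nlgn2 was at −0.69 in that fit. The causes of these shifts were not tested. Without TR/TO-Klf9 doxycycline 2 no doxycycline library remained, so no value was had. The single induced library limits every statement on Klf9 induction.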
